A study of Homo sapiens with 6 samples.

Results

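The HOX genes of the 4 human clusters were examined in A-549 cells, an established line derived from a lung cancer, with and without the RNA-binding protein gene RAVER1. The members were the rows marked protein-coding whose symbol was HOX, a cluster letter from A to D and a paralog number. This rule found 39 genes of the 60624 in the table: 11 in HOXA on chromosome 7, 10 in HOXB on chromosome 17, 9 in HOXC on chromosome 12 and 9 in HOXD on chromosome 2. Polyadenylated RNA was sequenced from 3 libraries of wild-type cells, called parental here, and from 3 libraries of RAVER1 knockout cells made by CRISPR/Cas9 editing. No treatment, dose or time separates the groups in the labels. The titles of all knockout libraries carry the name KO2, and they do not say whether this is 1 clone, so the spread between these libraries is not the spread between independently made knockouts.

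HOX genes encode homeodomain transcription factors that give cells their position along the body axis. The genes of a cluster lie in the order of their paralog numbers, low numbers act in anterior and high numbers in posterior structures, and genes with the same number in different clusters are paralogs with related DNA binding. Polycomb proteins keep silent HOX genes closed, trithorax proteins and retinoic acid favour their expression, and HOX proteins bind DNA together with PBX and MEIS partners. Adult lung and many tumour lines keep part of this code switched on.

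Total counts ran from 29811747 to 39910127 per library. RAVER1 had 2510, 1996 and 2285 counts in parental and 110, 112 and 79 in knockout libraries (log2 fold change -4.67, SE 0.0786, edgeR adjusted p = 1.24e-18), so the labels and the targeted gene go together. The summed level of 4 epithelial genes (EPCAM, KRT8, KRT18 and CDH1) and of CDH2, which encodes N-cadherin and is better known from mesenchymal cells, was 6505 to 7120 CPM (read counts scaled for library size) in parental and 3609 to 4152 CPM in knockout libraries. The 4 epithelial genes were all lower, and CDH2 did not pass (log2 fold change 0.06). Of 5 lung and alveolar markers, NKX2-1 had 1 count in all. The list, nearly all ABCA3, summed to 103 to 109 CPM against 77.0 to 87.4 CPM. Fibroblast markers, nearly all COL1A1, summed to 46.4 to 49.7 CPM against 63.7 to 67.6 CPM, with 1 of 5 at 0. Leukocyte markers, nearly all CD14, summed to 5.08 to 5.76 CPM against 3.87 to 5.17 CPM, with 2 of 5 at 0. Endothelial markers summed to at most 0.129 CPM, with 1 of 4 at 0. The epithelial, lung and fibroblast sums were separate between the groups, and the leukocyte and endothelial sums overlapped. The part of these markers in the HOX results was not tested. In bulk RNA, more cells that express a gene and more RNA per cell cannot be told apart.

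The parental cells expressed genes of all 4 clusters, with HOXB7 in front. The order of the genes was taken per length, as TMM-scaled CPM per kilobase of the length column deposited with the counts. HOXB7, a central-group gene of the HOXB cluster, stood at 23.1 ± 1.42 (SD, n = 3) CPM per kilobase in parental cells and at 20.6 ± 0.481 (n = 3) in knockout cells. Next in parental cells came HOXB9 at 6.04 ± 0.049, HOXA3 at 5.88 ± 0.174, HOXA7 at 5.64 ± 0.458, HOXC9 at 5.41 ± 0.328 and HOXB13 at 5.40 ± 0.077 CPM per kilobase. The gap between HOXB7 and all others was far beyond their spread, whereas neighbours in the order from HOXB9 to HOXB13 differed by no more than the larger of their SDs. In knockout cells the order after HOXB7 was HOXB9 (5.91), HOXB13 (5.49), HOXC9 (5.19), HOXA7 (4.64), HOXC13 (3.70), HOXC8 (3.59) and HOXA3 (3.53 CPM per kilobase). HOXC8 and HOXA3 differed by less than an SD there (0.137 and 0.130). The order after HOXB7 also depends on the length used, which for HOXA3 is 4306 bases in the deposited column and 3396 bases for its longest transcript. Per kilobase of the longest transcript, the parental order after HOXB7 was HOXA3 (7.45), HOXA7 (6.74), HOXB9 (6.05), HOXB8 (5.99) and HOXC9 (5.94). HOXB6 (4.85) and HOXB13 (4.73) came next.

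**Figure D1:**
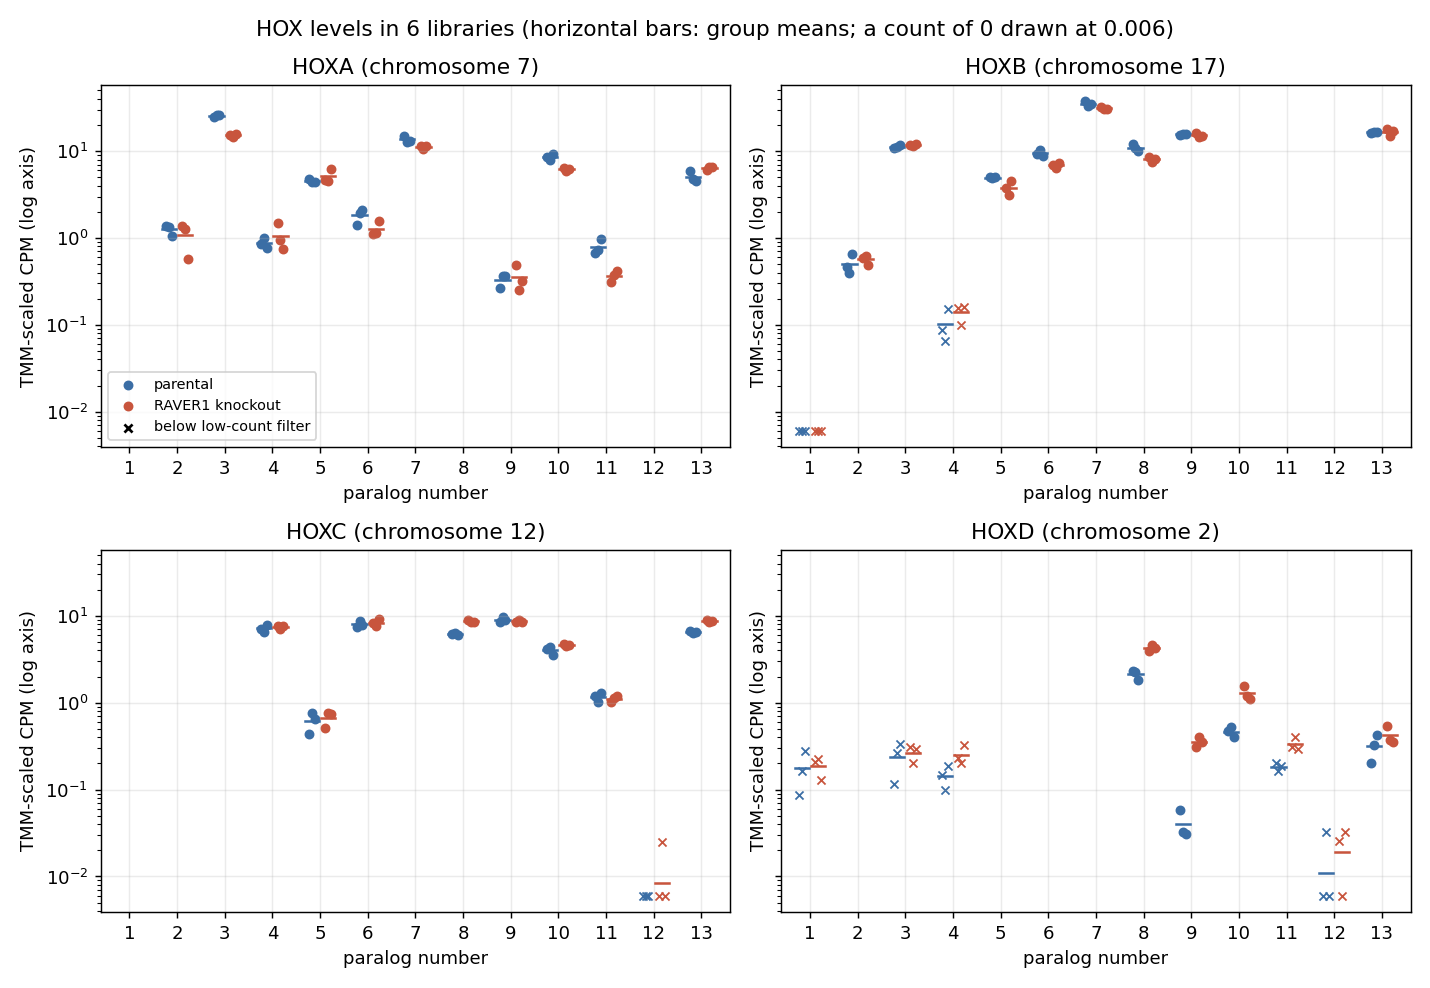
Levels of HOX genes in each of the 6 libraries, as TMM-scaled CPM on a log axis against paralog number, with 1 panel per cluster; points are libraries (blue parental, red knockout), bars are group means, and crosses are genes below the low-count filter. The red points of HOXD8, HOXD9 and HOXD10 all lie above the blue ones.

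Of the 39 members, 8 were too low for the test. HOXB1 had no count in any library, which allows up to 0.0754 to 0.0987 CPM per library (a floor of 3 counts, counting error only). HOXC12 had 1 count in all and HOXD12 3 counts in all. HOXB4, HOXD1, HOXD3, HOXD4 and HOXD11 had 2 to 16 counts per library. The other 31 genes passed the filter, all 11 of HOXA, 8 of HOXB, 8 of HOXC and 4 of HOXD.

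Of the 31 tested genes, 6 were higher and 9 lower in the knockout at an adjusted p under 0.05, and 16 did not pass. HOXD9, HOXD10, HOXD8, HOXC8, HOXC13 and HOXA13 were higher. HOXA11, HOXA3, HOXA6, HOXB6, HOXA10, HOXB8, HOXB5, HOXA7 and HOXB7 were lower. The called share of 48.4% stands beside 41.4% of all 16652 genes tested (21.3% higher and 20.1% lower), so a call as such was about as common among HOX genes as elsewhere. The groups did not overlap for 15 of the 31 HOX genes (48.4%) against 50.2% of all genes. Changes of at least 2-fold that also passed the test were seen in 4 HOX genes (12.9%), HOXD8, HOXD9, HOXD10 and HOXA11, against 6.83% of all genes. These counts include HOXD9, which passed the low-count filter through the knockout libraries alone, and HOXD13, which reached its cutoff in 3 knockout and 2 parental libraries, so they are descriptions only. HOXD8 and HOXA11 lay near the 2-fold limit. Over the alternative fits their log2 fold changes ran from 0.89 to 1.07 and from -1.22 to -0.93. HOXD8, HOXD9 and HOXD10 lie on chromosome 2, whose tested protein-coding genes had a median of 0.45. The median log2 fold change was 0.04 over the tested HOX genes and 0.00 over all genes.

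The direction of the called genes differed by cluster, and also by chromosome. HOXA had 1 higher and 5 lower genes of 11 (median log2 fold change -0.20), HOXB 0 higher and 4 lower of 8 (median -0.10), HOXC 2 higher and 0 lower of 8 (median 0.10), and HOXD 3 higher and 0 lower of the 4 tested. HOXD9 and HOXD13, which met the filter through the knockout libraries, are among these 4, so no weight rests on the HOXD count. Of 599 tested protein-coding genes on chromosome 7, 64 were higher and 226 lower. Chromosome 17 had 125 higher and 237 lower of 819, and chromosome 12 had 144 and 153 of 681. Chromosome 2 had 681 and 53 of 876. Lower calls thus outnumbered higher ones on chromosomes 7 and 17, as in HOXA and HOXB. The reverse held on chromosome 2, as in HOXD. The part of the chromosomes in the cluster counts was not tested. By paralog number, the anterior genes 1 to 3 had 0 higher and 1 lower of 5, the central genes 4 to 8 had 2 higher and 6 lower of 13, and the posterior genes 9 to 13 had 4 higher and 2 lower of 13. Of all genes tested, 21.3% were higher and 20.1% lower. The higher genes include HOXD8 (central) and HOXD9 and HOXD10 (posterior), which lie on chromosome 2. There 77.7% of the tested protein-coding genes were higher. Where edgeR called 0 genes in a direction, the count was also 0 at an unadjusted p under 0.05 and in DESeq2 and limma-voom. These counts describe the clusters, and no test compared the clusters with each other.

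**Figure D2:**
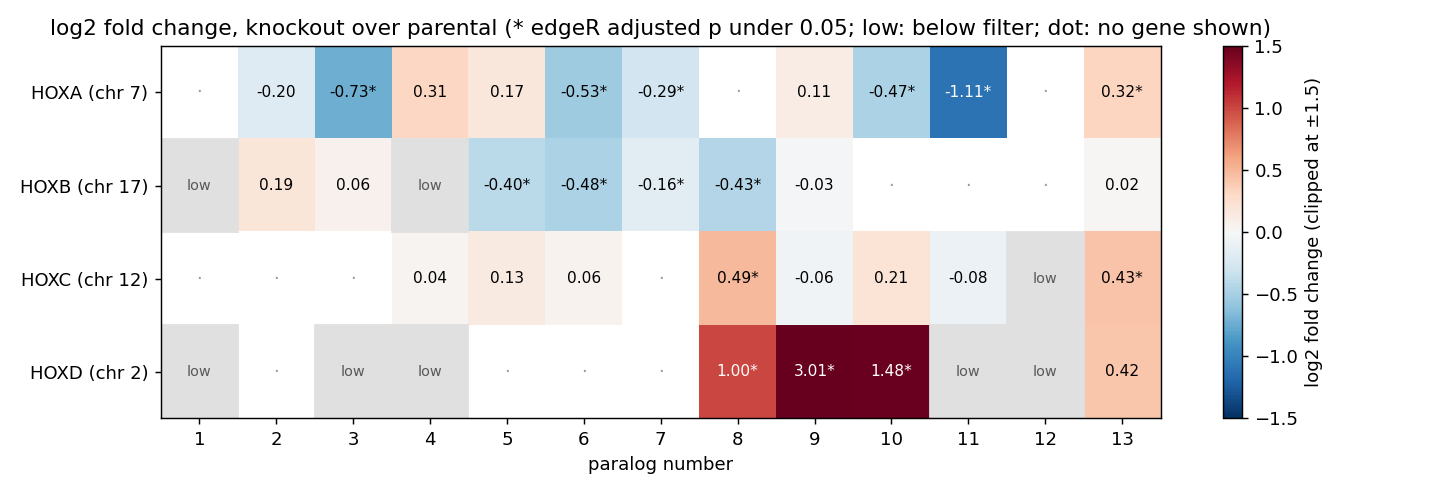
Log2 fold change (knockout over parental) of HOX genes by cluster (rows) and paralog number (columns), with colours cut off at 1.5 in either direction; an asterisk marks an edgeR adjusted p under 0.05 grey cells are below the low-count filter, and dots mark places with no gene shown. Among the called genes HOXA13, HOXC8, HOXC13, HOXD8, HOXD9 and HOXD10 are red, and the called genes of HOXB 5 to 8 and the other called genes of HOXA are blue.

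In the HOXD cluster 3 neighbouring genes rose from a low level. They lie on the plus strand of chromosome 2 (hg38), HOXD10 at chr2:176108790-176119942, HOXD9 at chr2:176122720-176124937 and HOXD8 at chr2:176129694-176132695. HOXD8, a central HOX gene, had 2.30, 2.27 and 1.82 CPM in parental and 3.98, 4.60 and 4.22 CPM in knockout libraries. Every knockout library lay above every parental library, with a log2 fold change of 1.00 (SE 0.138, edgeR adjusted p = 8.94e-06). HOXD10, a posterior gene active in limb and spinal cord patterning, had 0.467, 0.527 and 0.400 CPM against 1.58, 1.21 and 1.095 CPM. These groups did not overlap either, although the counts behind them were small (13 to 16 per parental and 34 to 61 per knockout library), and the log2 fold change was 1.48 (SE 0.249, edgeR adjusted p = 8.54e-05).

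HOXD9, the gene between them, was at the edge of detection in parental cells. It had 2, 1 and 1 counts in parental against 12, 16 and 11 counts in knockout libraries. All 3 knockout libraries were above all parental ones, and the gene passed the low-count filter through the knockout libraries only. The summed counts of 4 and 39, scaled for depth, gave a ratio of 8.65 with an exact 95% interval of 3.12 to 33.3 that covers counting error only. The fitted log2 fold change was 3.01 (SE 0.525, edgeR adjusted p = 1.31e-04), a value that depends on the prior count at such low levels. Over the alternative fits in which it was tested, it stayed between 2.74 and 3.34, and without knockout replicate 2 it no longer passed the low-count filter.

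The remaining HOXD genes did not pass. HOXD13, the most posterior gene of the cluster, had 7, 10 and 14 counts against 21, 15 and 11 counts (log2 fold change 0.42, SE 0.352, edgeR adjusted p = 0.371), with overlapping groups. Among the untested genes, HOXD11 had 7, 5 and 6 counts against 12, 16 and 9 counts, and HOXD4 had 5, 3 and 6 counts against 9, 8 and 10 counts. Both pairs of groups were separate, but with no low-count filter neither passed the edgeR test (log2 fold changes 0.85 and 0.77, adjusted p = 0.185 and 0.356). HOXD1 and HOXD3 overlapped between the groups, with log2 fold changes of 0.12 and 0.16 in that fit. HOXD10 and HOXD11 share 16.8% and 21.4% of their exon bases with each other. Exons of other genes on the same strand cover 80.5% of the exon bases of HOXD4 and 62.2% of HOXD3. On the opposite strand they cover 58.1% of HOXD1. Reads of these genes can have been lost or counted in the wrong gene, whereas HOXD8 and HOXD9 overlap no other exon.

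The whole of chromosome 2 was shifted upward in these knockout libraries, and HOXD lies on it. Of its 876 tested protein-coding genes, 681 were higher (77.7%), and their median log2 fold change was 0.45. Against that median, HOXD8 was 0.55 higher, HOXD10 1.03 higher and HOXD9 2.55 higher on the log2 scale, while HOXD13 was at -0.03. The part of the chromosome-wide shift in the HOXD values was not tested. For the other clusters the chromosome medians were -0.12 (chromosome 7), -0.04 (chromosome 17) and 0.00 (chromosome 12).

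The start regions of the HOXD genes with an entry in RefSeq's promoter table are shown because these genes moved together, on build GRCh38.p14, from 250 bases before to 50 after the start. They are chr2:176129455-176129754 for HOXD8 and chr2:176116528-176116827 for HOXD10, both on the plus strand. Capitals mark matches to the motifs searched on both strands, which were the TATA box as TATAAA, the CCAAT box under that name, the GC box as GGGCGG and a joint PBX and HOX motif as TGATNNAT.
HOXD8: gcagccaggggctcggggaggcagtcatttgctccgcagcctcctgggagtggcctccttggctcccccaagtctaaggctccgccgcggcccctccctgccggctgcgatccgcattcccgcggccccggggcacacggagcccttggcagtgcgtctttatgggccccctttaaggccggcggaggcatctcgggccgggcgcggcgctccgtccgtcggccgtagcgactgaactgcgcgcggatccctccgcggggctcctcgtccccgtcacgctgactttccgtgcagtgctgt
HOXD10: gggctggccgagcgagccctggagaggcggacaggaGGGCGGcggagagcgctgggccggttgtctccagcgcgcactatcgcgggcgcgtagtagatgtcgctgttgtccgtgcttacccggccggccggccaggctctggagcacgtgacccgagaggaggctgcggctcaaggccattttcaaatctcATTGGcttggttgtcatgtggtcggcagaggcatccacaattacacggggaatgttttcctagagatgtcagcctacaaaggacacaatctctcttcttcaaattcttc
HOXD8 held 34 CpG dinucleotides and HOXD10 held 23, against a median of 14 over 35116 promoters in the table and of 22 over the 27 entries for 20 HOX genes. HOXD8 matched none of the 4 motifs, and HOXD10 held 1 GC box (GGGCGG) and 1 CCAAT box on the minus strand, printed as its reverse complement. Among all promoters 45.0% held GGGCGG, 34.6% held CCAAT, 11.5% held TATAAA and 7.40% held TGATNNAT, so these matches are common letters and describe the sequence only.

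In the HOXA cluster 5 genes fell and 1 rose. The cluster lies on the minus strand of chromosome 7 (hg38), with HOXA3 at chr7:27106184-27152581, HOXA10 at chr7:27170591-27180261, HOXA11 at chr7:27181510-27185223 and HOXA13 at chr7:27193503-27200106. HOXA3, an anterior gene that patterns the pharyngeal arches, had the smallest adjusted p of all HOX genes. It had 24.4, 25.7 and 25.8 CPM in parental and 15.5, 14.6 and 15.6 CPM in knockout libraries. The groups were far apart, with a log2 fold change of -0.73 (SE 0.0649, edgeR adjusted p = 2.90e-08). HOXA3 made up 11.1% to 11.9% of the summed HOX CPM of a parental library and 7.42% to 7.52% of that of a knockout library. The posterior gene HOXA10 had 8.46, 7.97 and 9.26 CPM against 6.36, 5.96 and 6.19 CPM, again without overlap (log2 fold change -0.47, SE 0.0938, edgeR adjusted p = 4.47e-04).

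HOXA11, a posterior gene known from limb, kidney and uterus, showed the largest fall on the log2 scale among the called HOX genes. Its levels were low, 0.671, 0.724 and 0.985 CPM in parental and 0.310, 0.377 and 0.419 CPM in knockout libraries. All parental libraries were above all knockout libraries (log2 fold change -1.11, SE 0.284, edgeR adjusted p = 0.00405), with 22 to 32 counts against 12 to 15 counts per library. HOXA7, a central gene, had 14.9, 12.9 and 13.1 CPM against 11.5, 10.7 and 11.4 CPM (log2 fold change -0.29, SE 0.0808, edgeR adjusted p = 0.00797). Its groups were separate, and without parental replicate 1, its highest library, the log2 fold change was -0.22 and the adjusted p 0.0645.

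The other called HOXA genes were near the threshold. HOXA6 had 1.43, 1.94 and 2.09 CPM in parental and 1.11, 1.13 and 1.58 CPM in knockout libraries, and it was the only called HOX gene whose groups overlapped (log2 fold change -0.53, SE 0.202, edgeR adjusted p = 0.0433). It missed the threshold in DESeq2 (adjusted p = 0.111) and without parental replicates 2 or 3 or knockout replicates 1 or 2, with log2 fold changes of -0.48, -0.42, -0.44 and -0.45. HOXA13, the most posterior gene of the cluster, moved the other way, with 5.83, 4.81 and 4.59 CPM in parental and 5.9997, 6.51 and 6.60 CPM in knockout libraries. The highest parental library lay just under the lowest knockout library (log2 fold change 0.32, SE 0.111, edgeR adjusted p = 0.0253). HOXA13 missed the threshold in DESeq2 (adjusted p = 0.0623) and without parental replicates 2 or 3 or knockout replicates 2 or 3, with log2 fold changes of 0.29, 0.25, 0.31 and 0.30.

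HOXA2, HOXA4, HOXA5 and HOXA9 did not pass, with log2 fold changes of -0.20, 0.31, 0.17 and 0.11 and overlapping groups. HOXA5, a gene of lung development, had 4.81, 4.41 and 4.37 CPM against 4.68, 4.55 and 6.19 CPM, and only knockout replicate 3 stood above the parental range. Antisense transcripts run through this cluster. In GENCODE release 29, exons of other genes on the opposite strand cover 62.5% of the exon bases of HOXA7, 39.3% of HOXA6, 31.1% of HOXA11, 16.4% of HOXA10 and 15.4% of HOXA3. The library kit keeps strand, but the strand setting of the counting is not given in the sources used here, so reads of these genes and of their antisense partners cannot be told apart with certainty.

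In the HOXB cluster a run of neighbouring central genes fell, and none rose. On the minus strand of chromosome 17 (hg38), HOXB5 lies at chr17:48591257-48593961, HOXB6 at chr17:48595751-48604992, HOXB7 at chr17:48607227-48633572 and HOXB8 at chr17:48611377-48614939. HOXB6 had 9.31, 10.4 and 8.86 CPM in parental and 6.93, 6.38 and 7.22 CPM in knockout libraries (log2 fold change -0.48, SE 0.0934, edgeR adjusted p = 4.08e-04). HOXB8 had 11.96, 10.9 and 9.94 CPM against 8.64, 7.51 and 8.12 CPM (log2 fold change -0.43, SE 0.0921, edgeR adjusted p = 8.35e-04). Both genes were separate between the groups and kept their calls in the 14 alternative fits. HOXB5, which acts in lung and gut development, had 5.05, 4.87 and 4.99 CPM against 3.78, 3.12 and 4.48 CPM (log2 fold change -0.40, SE 0.128, edgeR adjusted p = 0.0165). Knockout replicate 2 was its lowest library, and without it the log2 fold change was -0.27 and the adjusted p 0.104.

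HOXB7, the most abundant HOX gene, changed least among the called ones. It had 37.3, 33.0 and 34.99 CPM in parental and 32.2, 30.9 and 30.9 CPM in knockout libraries, without overlap (log2 fold change -0.16, SE 0.0598, edgeR adjusted p = 0.0344). It missed the threshold with no low-count filter (adjusted p = 0.0562) and without parental replicates 1 or 3 or knockout replicates 2 or 3, with log2 fold changes of -0.12, -0.18, -0.15 and -0.15. Its share of the summed HOX CPM was 15.2% to 16.9% in parental and 14.9% to 15.8% in knockout libraries, which overlap. HOXB2, HOXB3, HOXB9 and HOXB13 did not pass, with log2 fold changes of 0.19, 0.06, -0.03 and 0.02. HOXB13, which lies apart at the posterior end and is known from prostate, had 16.2 to 16.6 CPM in parental and 14.98 to 17.8 CPM in knockout libraries. Exons of other genes cover 16.6% of the exon bases of HOXB6 on its own strand and 16.3% on the opposite strand, and none of HOXB7 or HOXB8.

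In the HOXC cluster 2 genes rose and none fell. They lie on the plus strand of chromosome 12 (hg38), HOXC13 at chr12:53938765-53946544 and HOXC8 at chr12:54009106-54012362. HOXC8, a central gene of the thoracic region, had 6.24, 6.29 and 6.001 CPM in parental and 9.05, 8.52 and 8.44 CPM in knockout libraries. The groups were well apart (log2 fold change 0.49, SE 0.0895, edgeR adjusted p = 2.04e-04). HOXC13, a posterior gene needed for hair and nail formation, had 6.62, 6.29 and 6.55 CPM against 8.9996, 8.42 and 8.76 CPM, also without overlap (log2 fold change 0.43, SE 0.0884, edgeR adjusted p = 6.92e-04). Both calls held in the 14 alternative fits. HOXC10 had 4.11, 4.41 and 3.54 CPM against 4.76, 4.52 and 4.64 CPM, and it was the only uncalled gene among the 31 tested whose groups did not overlap (log2 fold change 0.21, SE 0.116, edgeR adjusted p = 0.167).

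HOXC4, HOXC5, HOXC6, HOXC9 and HOXC11 did not pass, with log2 fold changes of 0.04, 0.13, 0.06, -0.06 and -0.08 and overlapping groups. HOXC9 had 8.55, 9.61 and 8.86 CPM in parental and 8.43, 9.02 and 8.47 CPM in knockout libraries, so the gene between HOXC8 and HOXC10 in the cluster was close to level. HOXC4, HOXC5 and HOXC6 share 17.8%, 59.9% and 15.7% of their exon bases with each other or other genes on the same strand, and the split of reads among them is uncertain.

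Summed over a cluster, the 11 HOXA genes went from 67.8 ± 1.28 to 54.0 ± 2.13 CPM (mean ± SD, n = 3 each), and the 10 HOXB genes from 104.4 ± 2.03 to 94.4 ± 4.28 CPM. The HOXC sum went from 42.7 ± 0.931 to 48.2 ± 0.938 CPM and the HOXD sum from 3.71 ± 0.154 to 7.40 ± 0.278 CPM. The groups did not overlap in any of these sums, which are given without a test. Single genes made up much of the HOXA, HOXC and HOXD changes. Mean CPM of HOXA3 went from 25.3 to 15.2, and that of HOXD8 from 2.13 to 4.27. HOXC8 went from 6.18 to 8.67 CPM and HOXC13 from 6.49 to 8.73 CPM. All HOX genes together gave 218.6 ± 2.04 CPM before and 204.1 ± 6.93 CPM after the knockout. As a share of that total, HOXA was 30.6% to 31.3% in parental and 26.2% to 26.9% in knockout libraries, HOXB 47.4% to 48.3% and 45.7% to 47.0%, HOXC 18.9% to 20.1% and 23.3% to 24.045%, and HOXD 1.63% to 1.79% and 3.42% to 3.88%. These shares are not corrected for gene length, so they are compared between groups and not between clusters.

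Paralogs did not move as units. Paralog groups 8 and 10 each held called genes in both directions. Group 6 had HOXA6 and HOXB6 lower and HOXC6 not past the threshold, and group 7 had both of its genes lower. In group 13, HOXA13 and HOXC13 were higher, and HOXB13 and HOXD13 did not pass. The 3 pairs with called members in opposite directions were compared within each library as the log2 ratio of their CPM, and since they were chosen for that difference the ratios are descriptions. HOXC8 over HOXB8 went from -0.82 ± 0.108 (SD, n = 3) in parental to 0.10 ± 0.069 in knockout cells. HOXD8 over HOXB8 went from -2.36 ± 0.098 to -0.92 ± 0.205, and HOXD10 over HOXA10 from -4.21 ± 0.308 to -2.27 ± 0.245. These ratios are not corrected for length, so their change between groups and not their sign can be read. The ratio was higher in every knockout library than in any parental library for all 3 pairs. With 3 against 3 libraries an exact permutation test cannot go below p = 0.1.

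**Figure D3:**
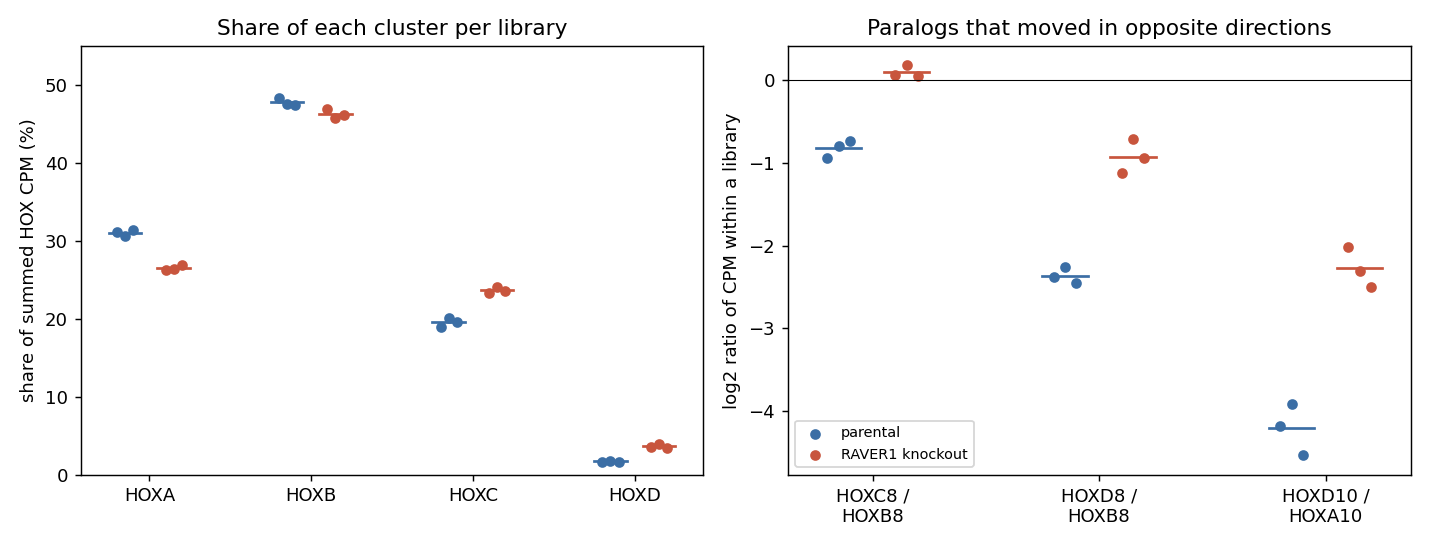
Left, share of the summed HOX CPM held by each cluster in each library (%); right, log2 ratio of CPM within a library for the 3 paralog pairs with called members in opposite directions; points are libraries (blue parental, red knockout) and bars are group means. HOXA shares fall to 26.2% to 26.9%, HOXC and HOXD shares are higher in every knockout library, and all 3 ratios are higher in the knockout.

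The genes around each cluster gave a local reference, as the 5 nearest tested protein-coding genes without a HOX name on each side. Not all of them are close, and the farthest lies 2606 kb from its cluster. Around HOXD 9 of 10 were higher and 1 lower, beside 77.7% of the chromosome's tested protein-coding genes higher. The median log2 fold change of these neighbours was 0.46, close to the chromosome's median of 0.45. The nearest on either side were LNPK (0.61), which shapes the endoplasmic reticulum, and MTX2 (0.43), a mitochondrial import protein. HOXD8, HOXD9 and HOXD10 at 1.00, 3.01 and 1.48 lay above all 10 neighbours, whose highest value was that of LNPK. These HOXD genes were the called ones of the cluster, so their placing is a description only. HOXD9 also met the low-count filter through the knockout libraries alone. HOXD13 at 0.42 lay among the neighbours. ATP5MC3 (0.59), AGPS (0.54) and HNRNPA3 (0.49) were among the higher ones. WIPF1, an actin regulator at -1410 kb from the cluster start, was the lower one (-0.58, SE 0.0529, edgeR adjusted p = 4.64e-08).

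Around HOXA 2 of 10 neighbours were higher and 4 lower (median -0.12). The neighbour counts of HOXA, HOXB and HOXC stand beside 41.4% of all genes called in either direction. PRR15, which lies 2364 kb from the cluster, fell by 4.07 on the log2 scale, from 10.1 to 0.603 CPM. NFE2L3, a transcription factor gene, rose by 1.00. HIBADH was at -0.40 and HNRNPA2B1 at -0.18. SKAP2, the nearest gene on the anterior side, was at -0.06 (edgeR adjusted p = 0.390). Around HOXB 1 was higher and 2 lower (median -0.0034), COPZ2 at 0.35, TTLL6 at -0.80 and ATP5MC1 at -0.16. Around HOXC 1 was higher and 2 lower (median -0.07), TARBP2 at 0.21, the heterochromatin protein gene CBX5 at -0.41 and the splicing factor gene HNRNPA1 at -0.28. HOXC8 and HOXC13, at 0.49 and 0.43, lay above all 10 HOXC neighbours. HOXB5, HOXB6 and HOXB8 lay below all HOXB neighbours except TTLL6, and HOXB7 (-0.164) was about level with ATP5MC1 (-0.161). These HOX genes were the called ones of their clusters, so their placing is a description only.

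**Figure D4:**
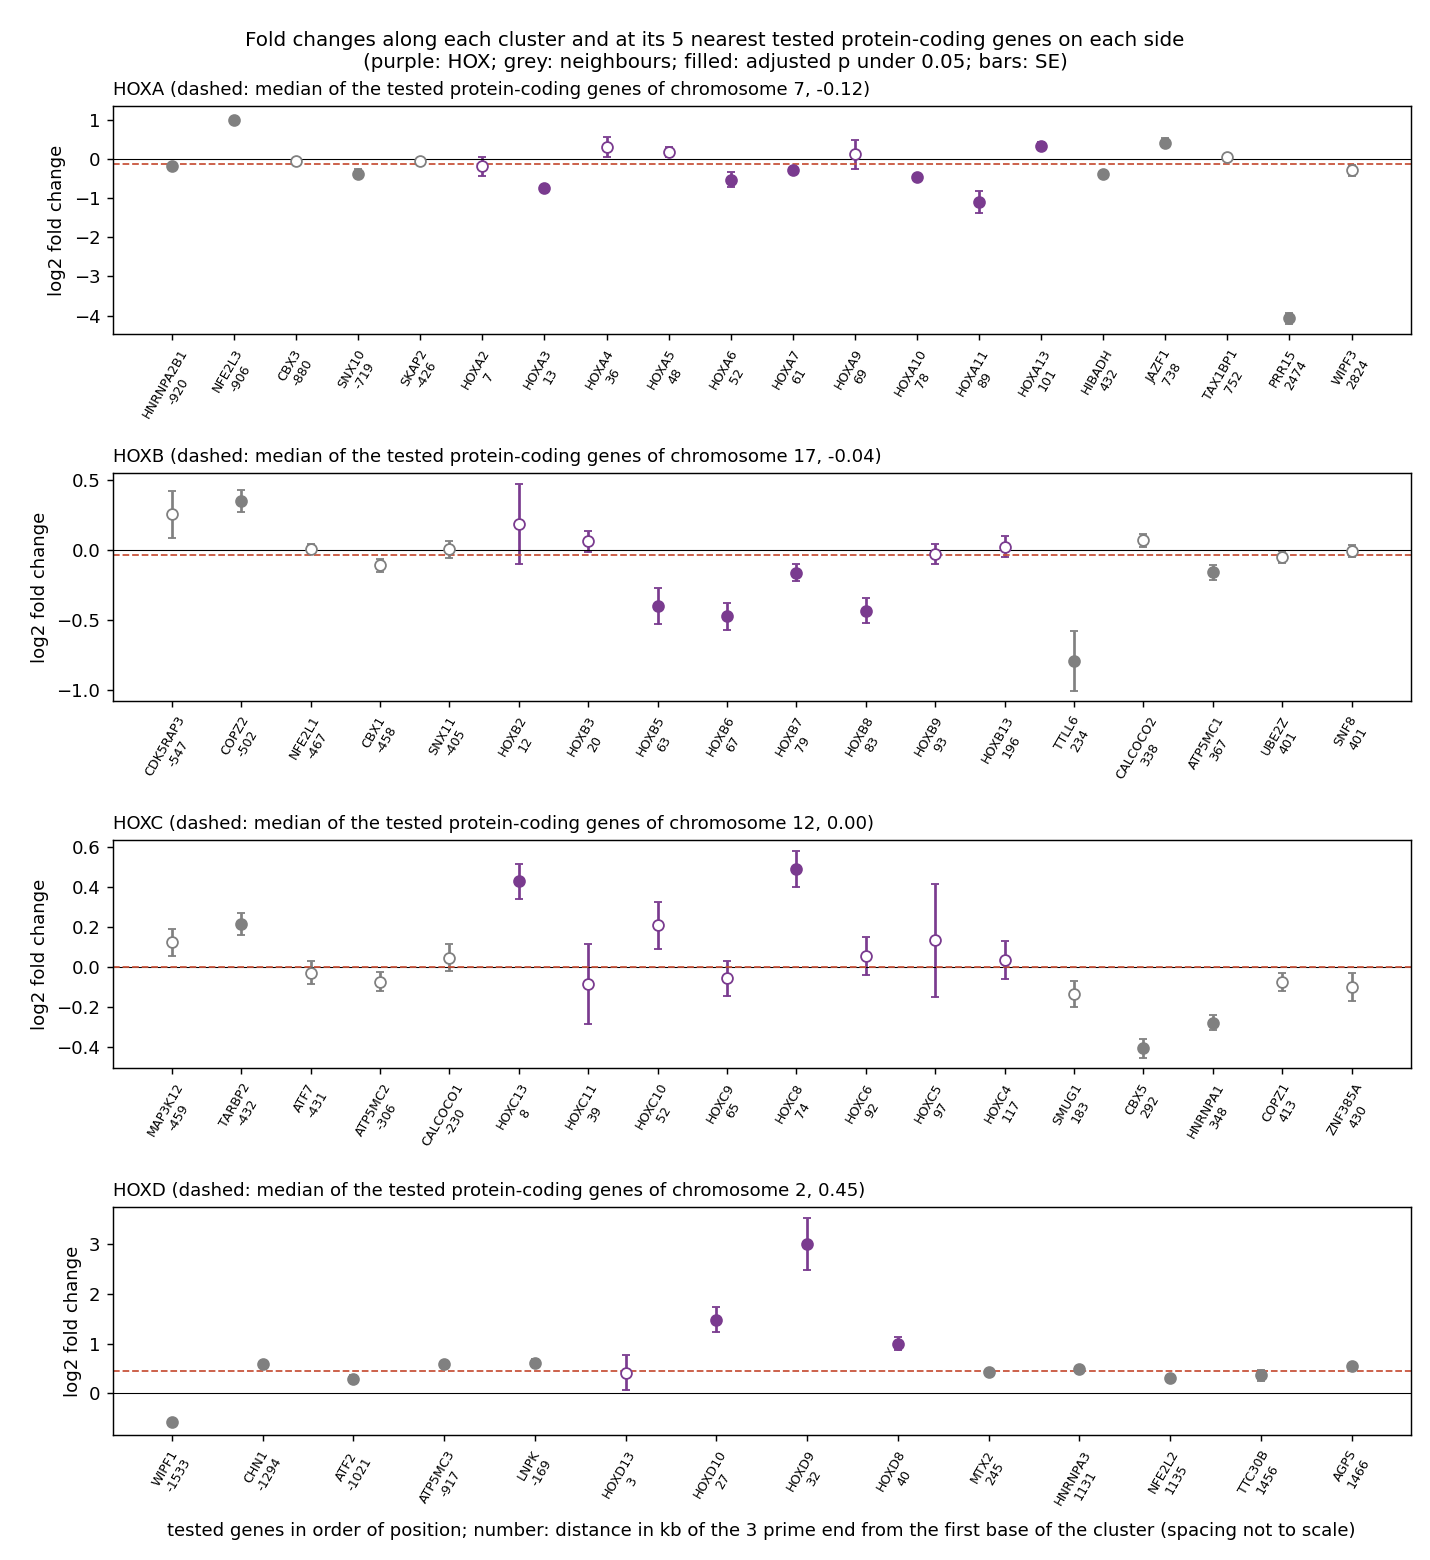
Log2 fold change (knockout over parental, bars SE) of tested HOX genes (purple) and of the 5 nearest tested protein-coding genes on each side (grey), in order of position; filled points have an edgeR adjusted p under 0.05, and the dashed line is the median of the chromosome. In HOXD the neighbours other than WIPF1 (-0.58) lie near the dashed line at 0.45 and HOXD8, HOXD9 and HOXD10 above it, and in HOXB the genes 5 to 8 lie below 0.

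Noncoding genes of the clusters were mostly too low to test. Of 28 listed, 25 were in the table and 11 were tested. Of these 0 were higher and 3 lower, beside 41.4% of all genes called in either direction. Their median log2 fold change was -0.33. HOXB-AS3, which overlaps HOXB6, had 24, 14 and 25 counts in parental and 14, 7 and 11 counts in knockout libraries (log2 fold change -1.13, SE 0.336, edgeR adjusted p = 0.0110), and it reached the filter's cutoff in all parental libraries but not in all knockout libraries. HOXA10-AS was at -0.65 (SE 0.200, edgeR adjusted p = 0.0139) and HOXA-AS2 at -0.31 (SE 0.104, edgeR adjusted p = 0.0246). At an unadjusted p under 0.05 edgeR had 0 of the 11 higher and these 3 lower, limma-voom called 0 and 3, and DESeq2 called 0 in either direction after adjustment (3 lower before it). HOTAIR, the noncoding RNA of the HOXC cluster known for its link to Polycomb, had 7, 12 and 8 counts against 12, 10 and 11 counts (log2 fold change 0.12, edgeR adjusted p = 0.841). HOTTIP, at the HOXA13 end, had 5, 1 and 4 counts against 3, 3 and 4 counts and was not tested.

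Partners of HOX proteins moved in both directions. PBX3, a homeodomain partner, rose by 0.22 on the log2 scale (SE 0.0619, edgeR adjusted p = 0.00848), and MEIS1 on chromosome 2 (0.34, edgeR adjusted p = 0.04995, just under the threshold) was called higher. MEIS2 (-0.38, edgeR adjusted p = 4.47e-04) and PKNOX1 (-0.20, edgeR adjusted p = 0.0356) fell, and PBX2 (0.11) did not pass.

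Retinoic acid genes moved in both directions. Of 18 listed, 14 were tested, with 5 higher and 2 lower (median 0.12), beside 41.4% of all genes called in either direction. RARB, a retinoic acid receptor that is itself a target of the pathway, had 7.35, 8.72 and 8.15 CPM in parental and 26.7, 25.6 and 26.8 CPM in knockout libraries (log2 fold change 1.71, SE 0.0758, edgeR adjusted p = 1.61e-12). RARG, another receptor, was at 0.75 and CYP26B1, an enzyme that breaks down retinoic acid and lies on chromosome 2, at 0.94. RDH10, which makes retinaldehyde, fell by 0.74 on the log2 scale.

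The called chromatin regulators of HOX genes changed by less than 2-fold. Of 14 trithorax-side genes 3 were higher and 2 lower (median -0.06), beside 41.4% of all genes called, among them DPY30 on chromosome 2 (0.45), the demethylase gene KDM6B (0.39), ASH2L (-0.28) and DOT1L (-0.17). KMT2A, the best known activator of HOX genes, was at -0.13 (edgeR adjusted p = 0.0668). Of 29 Polycomb genes 2 were higher and 3 lower (median -0.01), beside the same 41.4%, with PCGF1 on chromosome 2 at 0.63 and the histone methyltransferase gene EZH2 at -0.29, from 44.6 ± 0.538 to 36.6 ± 1.49 CPM (SD, n = 3 each, edgeR adjusted p = 3.05e-04). RBBP4 and RBBP7, which bind histones in this and other complexes, were at -0.19 and -0.17. The boundary protein gene CTCF (-0.07) and GMNN (0.10) did not pass. CDX2, the only ParaHox gene tested of 6, had 5, 4 and 12 counts against 22, 27 and 16 counts, with separate groups (log2 fold change 1.44, SE 0.372, edgeR adjusted p = 0.00431). It reached the filter's cutoff of 0.301 CPM in 1 parental and 3 knockout libraries, so it was tested only because of the group in which it was high.

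The HOX clusters also encode microRNAs that target HOX messages, and their mature sequences are shown because their sites fall in genes that moved in different directions. From RefSeq (GRCh38.p14), with the seed (bases 2 to 8) in capitals, miR-196a-5p and miR-196b-5p share a seed, and miR-10a-5p, from the HOXB cluster, has its own.
hsa-miR-196a-5p: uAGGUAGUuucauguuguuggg
hsa-miR-196b-5p: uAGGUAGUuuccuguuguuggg
hsa-miR-10a-5p: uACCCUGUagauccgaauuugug
The match to the shared seed of miR-196a-5p and miR-196b-5p, ACTACCT, was found in the longest 3 prime UTR of 9 of 39 HOX genes (23.1%) and of 8.32% of 19436 protein-coding genes in GENCODE release 29. HOX UTRs were shorter, with a median of 866 bases against 1336.5. HOXA5, HOXA7, HOXA9, HOXB1, HOXB6, HOXB7, HOXB13 and HOXC8 were among them. Of the 8 tested, 1 was higher (HOXC8) and 3 were lower (HOXA7, HOXB6 and HOXB7), beside 41.4% of all genes called in either direction. HOXA7 held 4 matches. The first site of HOXA7, those of HOXB6 and HOXB7 and the second of HOXC8 are shown with 14 bases before them and the matched part in capitals.
HOXA7: ggcgcgtccaaaatACTACCTA
HOXB6: tggaaggagcacatACTACCTA
HOXB7: aacactgaaaaaatACTACCTA
HOXC8: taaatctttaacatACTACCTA
The 4 genes carry the same 8 letters and had log2 fold changes of -0.29, -0.48, -0.16 and 0.49. The match to miR-10a-5p, ACAGGGT, was found in 3 of 39 HOX genes (7.69%), HOXA3 and HOXB3 among them, and in 13.5% of all. HOXA3, at -0.73, was the only called gene of these, and its site follows.
HOXA3: ctctttgatcagaaACAGGGTA
Polyadenylated RNA does not hold mature microRNAs, so their levels were not measured, and a match is a description of the sequence.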

How the data were processed

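Groups and replicate numbers came from the sample titles, for 3 parental and 3 RAVER1 knockout libraries. Per the labels' protocols, TRIzol was used for extraction and Illumina Stranded mRNA Prep for the libraries. Per the submitters' processing notes, the tools were cutadapt 2.8, HISAT2 2.1.0, SAMtools 1.10 and featureCounts 2.0.0, with build hg38. The deposited table holds raw read counts per gene as whole numbers, with no normalization by the authors, and a deposited gene length. That length equals the exon union of GENCODE release 29 for 11 of 39 HOX genes and is within 10% for 32. Not given in the sources used here are the annotation release, the strand setting and how reads on several genes were handled.

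Counts were tested with edgeR 4.0.16 in R 4.3.3: TMM scaling, filterByExpr, quasi-likelihood test and Benjamini-Hochberg adjustment over all 16652 genes kept, with a threshold of 0.05. SE is the log2 fold change divided by the square root of F. CPM uses TMM-scaled library sizes. The fit was also run on simulated data with 200 changed genes. These were drawn from genes with higher counts, so the run does not cover genes as low as HOXD9 or HOXD13. Total counts were 29811747 to 39910127 per library, so that 1 count was worth 0.0251 to 0.0329 CPM. No libraries of a group agreed within sampling noise (chi-square per degree of freedom 2.42 to 8.86), so all 6 were kept. Libraries of the same number correlated at 0.129, 0.0293 and 0.0142 in their deviations from the group means, and those of different numbers at -0.0931 to 0.0667. The numbers were not taken to pair the libraries in the main fit. A replicate block, given below, called more of all genes and the same HOX genes. Symbols with replaced hyphens were restored for 4534 genes, and 58437 identifiers matched GENCODE release 29, which gave positions, exon overlaps and UTRs. MicroRNA and promoter sequences came from RefSeq tables.

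The members and the gene lists were chosen with earlier results of these data known. All HOX genes were counted, and some single-gene results are not reported here. Of each other list, up to 4 called genes with the smallest adjusted p were named, and PBX2, PBX3, MEIS1, MEIS2, EZH2, KMT2A, CTCF, GMNN, HOTAIR and HOTTIP whatever their values. LNPK, MTX2 and SKAP2 were named in addition after their values were seen. Alternatives were RLE and upper-quartile scaling, TMM factors without chromosome 2, other low-count filters, DESeq2 1.42.0, limma-voom 3.58.1, a replicate block and leaving out each library.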

Additional observations from a re-analysis of the deposited data

How the results depend on the processing

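Over 14 alternative fits, 6 of them leaving out 1 library each, the HOX genes higher numbered 4 to 6 and those lower 6 to 9, always among the same 6 and 9 genes. Of the 15 called HOX genes, 10 kept their call wherever they were tested and none changed direction. Of these, HOXD9 and HOXA11 were left out of the test by a filter of 1 CPM in 3 libraries, and HOXD9 also without knockout replicate 2. HOXA6, HOXA7, HOXA13, HOXB5 and HOXB7 lost it in at least 1 fit, as given with their values. With the replicate block the same 6 higher and 9 lower HOX genes were called, beside 4275 higher and 4071 lower of all genes. Upper-quartile scaling gave 3098 higher and 3872 lower of all genes, against 3543 and 3343, and turned HOXB13 to -0.011. Leaving out 1 library turned the sign of 8 uncalled genes named here, whose log2 fold changes ran from -0.40 to 0.066 (HOXA2), -0.011 to 0.49 (HOXA4), -0.22 to 0.33 (HOXA9), -0.078 to 0.0017 (HOXB9), -0.030 to 0.098 (HOXB13), -0.024 to 0.10 (HOXC4), -0.068 to 0.30 (HOXC5) and -0.0024 to 0.12 (HOXC6), with the cause not tested. Depth limits the 8 untested genes and HOXD9, HOXD13 and HOXA9, which have few counts per library.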
